A study of Mus musculus with 30 samples.

Results

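Zfp genes are the mouse genes named as zinc finger proteins by the prefix Zfp and a number. The set described here held the 387 protein-coding genes so named on chromosomes 1 to 19, leaving out Zfp42, of 20558 protein-coding genes on these chromosomes (mm10, RefSeq). A gene was called clustered when at least 3 other Zfp genes lay within 500 kb of its body, which gave 192 clustered genes and 195 other Zfp genes. The symbol and the map position chose the members, and no measured value was a criterion. Earlier results of these data were, however, known when the rule was set. The positions were set against the replication initiation zones of wild-type E14TG2a cells, a long-used line of mouse embryonic stem cells, grown in LIF with inhibitors of GSK3 and MEK. The 2844 zones came from 1 library of OK-seq, after a pulse of 2 min with 10 µM EdU. The series has 30 samples on the sharing of old and new histones between sister chromatids in wild-type and MCM2-2A cells, and its 29 samples of SCAR-seq, the MCM2-2A clones among them, were left aside and not analysed here. With 1 library there was no replicate error and no test between conditions, the depth is unknown, and the intervals below cover counting error only.

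Most Zfp genes encode C2H2 zinc finger proteins, in which strings of zinc-bound fingers read DNA sequence. Many of them also carry a KRAB domain, which recruits the co-repressor Trim28 and through it the H3K9 methyltransferase Setdb1, and in embryonic stem cells these repressors silence endogenous retroviruses and protect imprints. KRAB zinc finger genes multiplied by tandem duplication, so many sit side by side in clusters of related copies. OK-seq reads Okazaki fragments by strand and thereby the direction of forks, and an initiation zone is a stretch from whose breakpoint, given here as a bin of 1 kb, leftward and rightward forks part.

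Promoter stretches show the kind of sequence involved. RefSeq promoter windows (GRCm38.p6, 250 bases before to 50 after a start) matched 324 of the 387 genes, 172 clustered and 152 other, in 393 windows. The first 3 stretches below belong to the clustered genes whose start lay nearest to a breakpoint, at 0.435, 0.512 and 3.03 kb, the next 3 to such other genes, at 0.243, 1.41 and 3.27 kb, and the last 3 to the first gene with a window in each of 3 large clusters without a gene near a zone. Each is the 250 bases before the start, 5′ to 3′, with every CpG in capitals.
Zfp74 (chr7:29954066-29954315, minus strand): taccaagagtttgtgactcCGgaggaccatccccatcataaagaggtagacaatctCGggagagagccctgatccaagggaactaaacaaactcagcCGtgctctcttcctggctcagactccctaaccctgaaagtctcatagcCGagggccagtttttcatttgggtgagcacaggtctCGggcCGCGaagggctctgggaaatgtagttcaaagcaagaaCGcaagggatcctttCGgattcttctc
Zfp53 (chr17:21488738-21488987, plus strand): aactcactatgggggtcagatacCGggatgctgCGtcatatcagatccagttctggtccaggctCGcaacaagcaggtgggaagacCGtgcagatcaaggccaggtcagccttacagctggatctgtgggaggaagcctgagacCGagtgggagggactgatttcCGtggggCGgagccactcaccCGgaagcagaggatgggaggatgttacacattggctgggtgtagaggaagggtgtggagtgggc
Zfp771 (chr7:127244276-127244525, plus strand): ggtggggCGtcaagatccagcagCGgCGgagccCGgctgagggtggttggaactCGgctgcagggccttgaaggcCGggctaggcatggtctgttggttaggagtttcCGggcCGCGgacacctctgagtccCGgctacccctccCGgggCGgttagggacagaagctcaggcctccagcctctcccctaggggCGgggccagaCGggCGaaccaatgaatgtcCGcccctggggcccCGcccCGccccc
Zfp113 (chr5:138155745-138155994, minus strand): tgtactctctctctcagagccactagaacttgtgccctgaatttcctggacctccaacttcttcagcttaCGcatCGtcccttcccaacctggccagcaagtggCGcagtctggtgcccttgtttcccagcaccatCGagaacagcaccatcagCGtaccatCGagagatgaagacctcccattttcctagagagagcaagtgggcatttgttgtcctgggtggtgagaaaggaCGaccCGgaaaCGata
Zfp605 (chr5:110109842-110110091, plus strand): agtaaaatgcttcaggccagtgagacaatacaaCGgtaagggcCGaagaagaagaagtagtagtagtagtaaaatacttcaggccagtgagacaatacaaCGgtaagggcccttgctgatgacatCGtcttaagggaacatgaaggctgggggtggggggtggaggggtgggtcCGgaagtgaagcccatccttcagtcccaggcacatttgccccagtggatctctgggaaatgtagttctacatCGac
Zfp619 (chr7:39517516-39517765, plus strand): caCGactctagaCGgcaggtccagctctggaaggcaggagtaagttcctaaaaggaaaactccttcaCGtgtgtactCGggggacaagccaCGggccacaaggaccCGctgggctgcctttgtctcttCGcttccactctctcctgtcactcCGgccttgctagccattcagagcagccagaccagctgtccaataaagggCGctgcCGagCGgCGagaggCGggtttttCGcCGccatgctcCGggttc
Zfp786 (chr6:47830506-47830755, minus strand): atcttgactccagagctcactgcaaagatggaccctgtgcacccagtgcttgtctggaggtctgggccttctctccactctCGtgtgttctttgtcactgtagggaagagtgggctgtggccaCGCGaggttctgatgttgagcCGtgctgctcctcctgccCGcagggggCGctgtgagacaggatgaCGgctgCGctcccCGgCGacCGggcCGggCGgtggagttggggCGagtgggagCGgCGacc
Zfp551 (chr7:12422492-12422741, minus strand): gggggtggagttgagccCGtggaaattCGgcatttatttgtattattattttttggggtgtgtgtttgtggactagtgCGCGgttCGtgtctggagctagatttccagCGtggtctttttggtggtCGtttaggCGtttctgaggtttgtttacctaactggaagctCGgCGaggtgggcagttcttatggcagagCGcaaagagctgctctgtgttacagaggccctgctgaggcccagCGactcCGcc
Zfp628 (chr7:4914967-4915216, plus strand): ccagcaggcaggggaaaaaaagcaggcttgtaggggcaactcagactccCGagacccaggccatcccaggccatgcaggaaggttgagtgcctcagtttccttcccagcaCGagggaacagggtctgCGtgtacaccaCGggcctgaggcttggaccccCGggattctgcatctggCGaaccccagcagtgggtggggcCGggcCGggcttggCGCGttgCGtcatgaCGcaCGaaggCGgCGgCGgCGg
The stretches near breakpoints held 9, 8 and 18 CpG in clusters and 9, 6 and 16 in the other genes. Those in the clusters without a near gene held 16, 13 and 17, so these far examples were not poorer in CpG. They were rich in CpG for far clustered genes, however. The whole windows of Zfp786, Zfp551 and Zfp628 held 23, 16 and 24 CpG, where the upper quartile of far clustered windows was 16. Over all clustered windows the medians ran the other way, 12 CpG for starts within 20 kb of a zone and 10 beyond.

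Clustered Zfp genes lay near initiation zones less often than the other Zfp genes, whose share was close to that of all genes. An end of 55 of 192 clustered genes (28.6%, Wilson 95% interval 22.7 to 35.4%) and of 78 of 195 other genes (40.0%, 33.4 to 47.0%) lay inside a zone or within 20 kb of it, against 38.5% of all protein-coding genes. The difference was 11.35 percentage points (Newcombe 95% interval 1.89 to 20.5). The intervals count genes as independent, which neighbours in a cluster are not, and no p-value was computed over genes. The interval held 0 when the cluster of chromosome 13, the largest, was left out (9.64 points, -0.232 to 19.2), and also with limits of 50 and 100 kb, gene midpoints, wide zones or a cluster window of 1000 kb. Without the 2 clusters with most near genes, on chromosomes 17 and 7, the clustered share was 21.1% and the difference 18.9 points.

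Ends inside a zone gave the same order. They were found for 49 clustered genes (25.5%) and 68 other genes (34.9%), against 32.4% of all protein-coding genes. The median distance to the nearest zone was 121.4 kb for clustered genes, with quartiles of 0 and 287.8 kb, and 71.75 kb for other genes, with quartiles of 0 and 280.9 kb, beside 71.2 kb for all genes. The order of the medians turned when narrow zones, those under the median of 112 kb, were dropped, to 270.2 kb for clustered and 332.5 kb for other genes. Genes over 500 kb from any zone were 25 of the clustered (13.02%) and 27 of the other genes (13.85%), against 10.8% of all. The upper quartiles and the shares over 500 kb of both groups thus lay close together, and the groups differed at short distances. The farthest gene lay at 2169 kb among the clustered and at 1491 kb among the other genes.

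**Figure D1:**
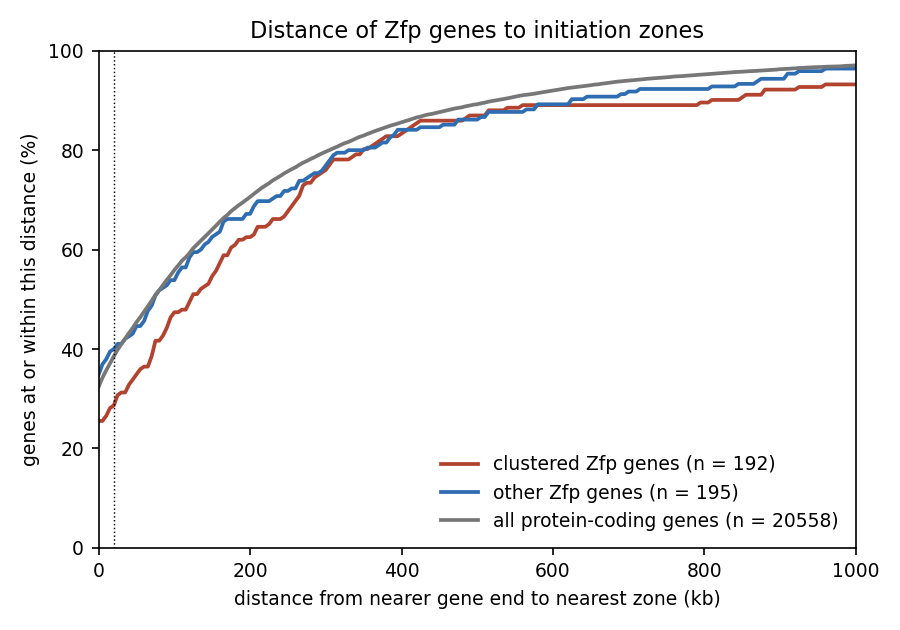
Cumulative share of genes (%, vertical) whose nearer end lies within a given distance of a zone (kb, horizontal) for 192 clustered Zfp genes, 195 other Zfp genes and all 20558 protein-coding genes, with a dotted line at 20 kb. The clustered curve starts at 25.5% and passes 28.6% at 20 kb, below the other 2 curves, and both Zfp curves end close together, with 13.02% and 13.85% of genes over 500 kb away.

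The share did not fall evenly with the number of Zfp neighbours. Lone Zfp genes, with no other Zfp gene within 500 kb, were near a zone in 54 of 123 cases (43.9%, 35.4 to 52.7%), and genes with 1 or 2 neighbours in 24 of 72 (33.3%). Genes with 3 to 5 neighbours were near in 20 of 73 cases (27.4%), those with 6 to 10 in 14 of 48 (29.2%) and those with 11 or more in 21 of 71 (29.6%). Just inside the limit, 4 of 21 genes with 3 neighbours and 10 of 25 with 4 were near, and just outside it, 14 of 38 genes with 2 and 10 of 34 with 1, so the shares on either side of the limit were mixed. Within the clustered genes there was no trend with crowding by Zfp genes, and the highest share belonged to genes that had no Zfp neighbour at all.

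The genes around the members were compared too. The median clustered gene had 26 other protein-coding genes within 500 kb, the median other Zfp gene 16 and the median gene 17, but the rule fixes part of this, since Zfp neighbours count among them. Without Zfp neighbours the medians were 16 for clustered genes (quartiles 8 and 26) and 15 for other Zfp genes (8 and 27), so the surroundings were about equally crowded. Among protein-coding genes without a Zfp name that lie within 500 kb of a clustered Zfp gene, 233 of 710 (32.8%, 29.5 to 36.4%) were near a zone, 4.17 points more than the clustered genes (-3.38 to 11.1). Such neighbours of the other Zfp genes alone were near in 1048 of 2710 cases (38.7%), a difference of -1.33 points for neighbours minus other Zfp genes (-8.57 to 5.54). The intervals of both differences held 0. The interval of the 710 neighbours of clustered genes lay below the 38.5% of all protein-coding genes. Counted by ends inside a zone, these neighbours had 25.35% and the clustered genes 25.5%, against 32.4% of all protein-coding genes. That difference was -0.169 points (-7.45 to 6.38). In places with 25 to 89 genes within 500 kb, Zfp genes included, 31 of 112 clustered genes (27.7%), 29 of 55 other Zfp genes (52.7%) and 34.4% of genes without a Zfp name were near. With 12 to 24 genes around, 21 of 67 clustered (31.3%) and 20 of 67 other genes (29.85%) were near, both below the 40.0% of genes without a Zfp name. In sparse places, with up to 11 genes, 3 of 13 clustered and 29 of 73 other genes (39.7%) were, beside 41.1% of genes without a Zfp name. Clustered genes thus stood below other Zfp genes in the crowded and sparse strata. In the middle stratum they stood just above them, with 21 against 20 of 67 genes. The difference between strata was not tested.

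The clusters were far from uniform. The 192 genes formed 22 runs of 1 to 24 genes, counting neighbours up to 500 kb apart as 1 run, and spans of 22.6 to 2184 kb. In 9 runs, with 43 genes, no gene lay within 20 kb of a zone, and no zone touched the span. They included Zfp972 on chromosome 2, a run of 1 gene. Its neighbours Zfp971 and Zfp931 had ends inside a zone but, with 2 Zfp neighbours each, fell below the limit of 3. In the other 13 runs, 55 of 149 genes were near, and in 4 of these at least 50% of the genes. The 2 runs with most near genes held 21 of the 55 (38.2%) with 31 genes between them. The mean of the 22 shares was 25.0%. Chromosome 7 alone carried 9 runs with 78 genes, of which 26 were near.

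**Figure D2:**
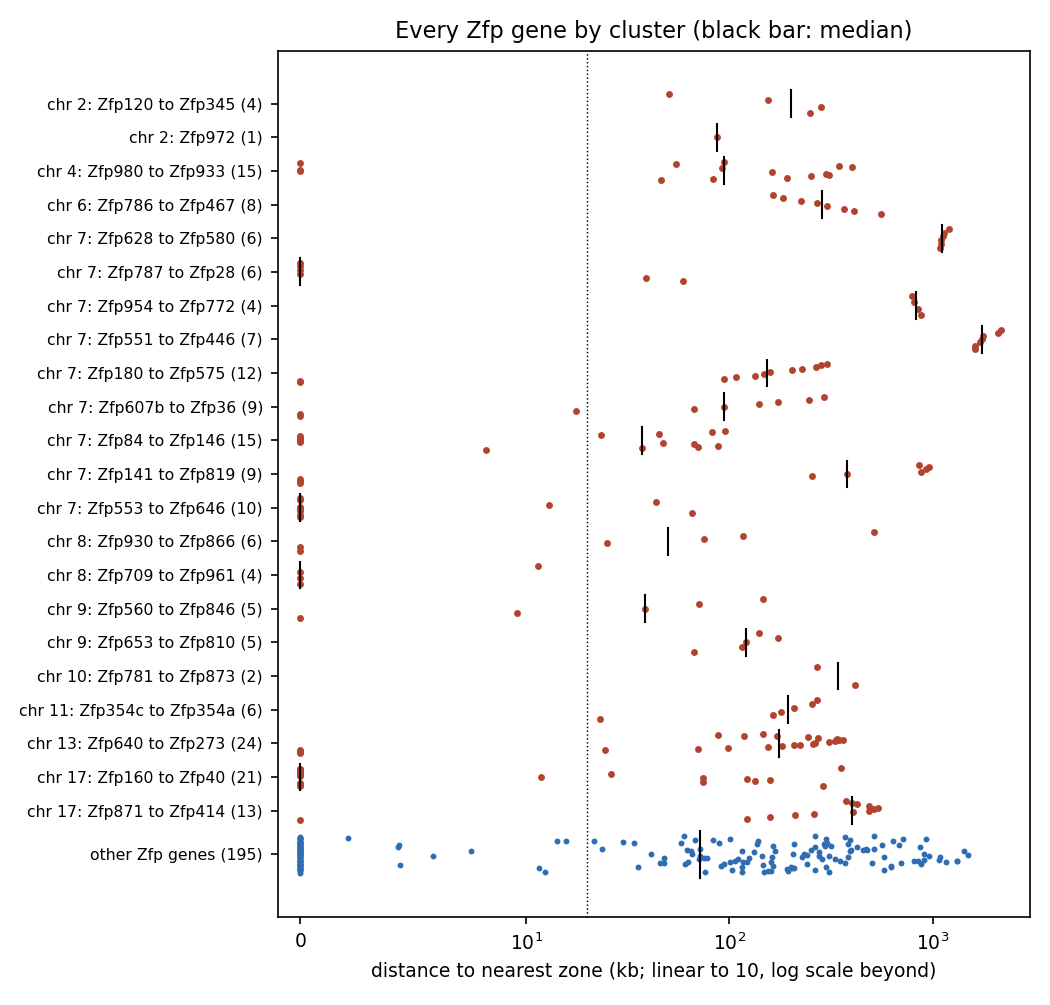
Distance of every Zfp gene to the nearest zone (kb; linear to 10, log scale beyond), a row for each of the 22 runs of clustered genes with the gene number in brackets, and a last row for the 195 other genes; black bars are medians and the dotted line is at 20 kb. Rows of chromosome 7 reach from 0 to beyond 1000 kb, and the points of the far rows (Zfp628, Zfp954, Zfp551) lie in narrow bands.

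The run richest in near genes lay on chromosome 17, from 21008941 to 23193284, between Zfp160 and Zfp40, with 13 of 21 genes near and 5 zones touching its span. Zfp945 had an end 0.197 kb and Zfp53 an end 0.567 kb from a breakpoint, both within the bin of 1 kb, and Zfp758 lay at 4.59 kb. A pair of zones with a common right edge (21384001 to 21584000 and 21405001 to 21584000) held an end of 6 neighbouring genes, Zfp677, Zfp54, Zfp51, Zfp53, Zfp52 and Zfp948. The flanking members were outside, with Zfp160 at 355.1 kb and Zfp40 at 286.9 kb from a zone, and Zfp942, Zfp943, Zfp947, Zfp995 and Zfp994 in the middle lay 73.9 to 157.6 kb away. This span also holds 8 vomeronasal receptor genes. Zones therefore alternated with gaps inside this run, and near and far genes followed each other in blocks.

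On chromosome 7, from 127233061 to 127885996, 8 of 10 genes between Zfp553 and Zfp646 were near, in the most crowded surroundings of any run (a median of 52 genes within 500 kb). Zfp771 and Zfp553 had ends 1.50 and 3.30 kb from the same breakpoint. Zfp764, Zfp688 and Zfp689 had ends inside the next zone, and Zfp768 and Zfp629 were the only members beyond 20 kb, at 43.7 and 65.2 kb. Of the 22 genes without a Zfp name in this span, 15 were near too. On chromosome 8 (71882068 to 71970333) all 4 genes of a short run were near a zone 74 kb wide, with Zfp882, Zfp617 and Zfp961 inside it and Zfp709 at 11.4 kb, and the breakpoint lay in the body of Zfp961. On chromosome 7 (6131489 to 6396637), 4 of 6 genes, from Zfp787 to Zfp583, shared a zone of 187 kb.

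In several large runs the near genes stood at the margin and the rest were far away. The largest, on chromosome 13 from Zfp640 to Zfp273 (66670274 to 67827000), had 24 genes. Its last 4, Zfp65, Zfp85, Zfp493 and Zfp273, lay inside a zone, with Zfp85 at 4.96 kb from the breakpoint, while the 20 before them lay 24.5 to 362.0 kb away. A second of the 2 zones touching this span fell in the gap between Zfp640 and Zfp712 and had no Zfp gene within 20 kb. Among the far genes was Zfp708, a repressor of a retroviral element family, at 118.4 kb. On chromosome 7, the run from Zfp180 to Zfp575 had its last 2 genes in a zone, Zfp428 at 6.05 kb from the breakpoint, and 10 genes at 94.3 to 303.3 kb. The run of chromosome 17 from Zfp871 to Zfp414 had only its last gene, Zfp414, in a zone, and 12 genes 122.4 to 537.8 kb away. In the run from Zfp141 to Zfp819, Zfp658, Zfp719 and Zfp819 shared a zone, and the breakpoint lay in Zfp819, which encodes a KRAB protein of pluripotent cells.

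Over the 13 runs with a near gene, the near genes were an unbroken row of neighbours at an end of the run in 9. Part of this count was fixed beforehand. All 4 genes from Zfp709 to Zfp961 were near, and the run to Zfp414 had only 1 near gene. Genes near a single zone also form a row by position. Outside the 9 were the runs of chromosome 4 and, on chromosomes 17 and 7, those from Zfp160 to Zfp40, from Zfp553 to Zfp646 and from Zfp84 to Zfp146. In the last of these, Zfp420, Zfp27, Zfp383, Zfp74 and Zfp568 in the middle of 15 genes had ends inside a zone, with Zfp74 at 0.352 kb from its breakpoint, and Zfp146 at the end lay 8.23 kb from the next zone. Zfp568, which represses a placental Igf2 promoter, was at 29.45 kb from the breakpoint. Taking the 20 runs with at least 4 genes, the first or last gene was near in 13 of 40 cases (32.5%, 20.1 to 48.0%) and the genes between in 42 of 149 (28.2%, 21.6 to 35.9%), and these intervals overlapped. The last gene in map order was near in 10 of 20 runs and the first in 3 of 20. This comparison was made after the values were seen.

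**Figure D3:**
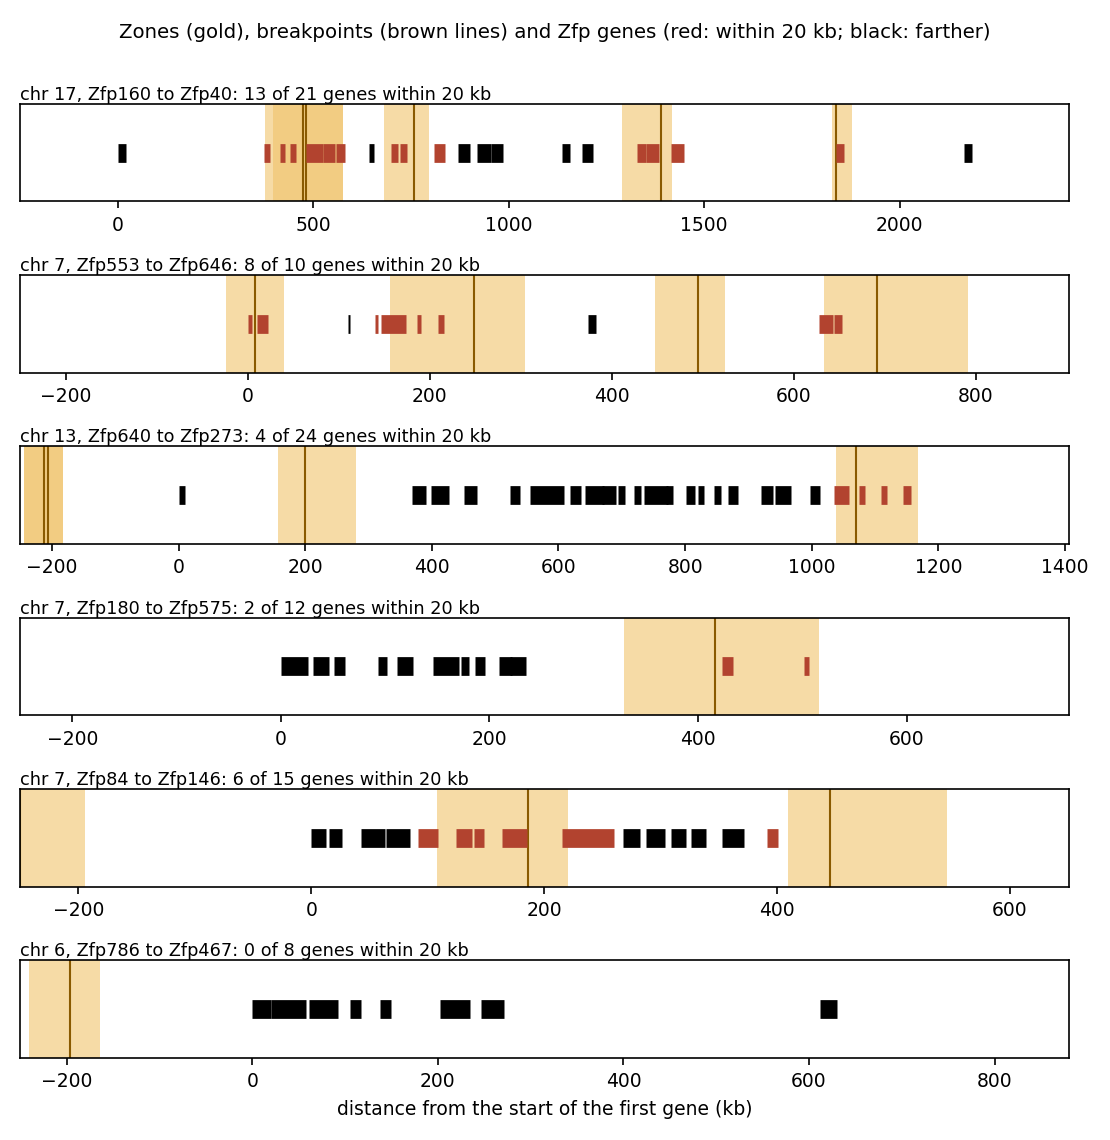
Maps of 6 runs of clustered Zfp genes, each along the distance from the start of its first gene (kb), with zones as gold bands, breakpoints as brown lines and genes as boxes, red within 20 kb of a zone and black beyond. Zones alternate with gaps in the top map (13 of 21 genes near), cover the last 4 of 24 genes in the third, and miss all 8 genes in the bottom map.

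Runs without any near gene included the farthest genes of the set. On the first part of chromosome 7, 3 runs with 17 genes (Zfp628 to Zfp580, Zfp954 to Zfp772 and Zfp551 to Zfp446) lay 790.7 to 2169 kb from a zone, and only 4 zones were listed on this chromosome before 15 Mb. The 5 farthest clustered genes were all in the last of these runs, Zfp551 at 2169 kb, Zfp606 at 2096 kb, Zfp329 at 1773 kb, Zfp110 at 1741 kb and Zfp128 at 1699 kb. The run between them in position, from Zfp787 to Zfp28, was the one that shared a zone of 187 kb. On chromosome 6, the 8 genes from Zfp786 to Zfp467 lay 163.5 to 557.0 kb away. On chromosome 9, the run of Zfp809, which silences proviruses of murine leukaemia virus in embryonic cells, lay 67.2 to 172.9 kb away, Zfp809 itself at 120.9 kb. The runs of chromosome 11 (Zfp354c to Zfp354a, 6 genes), of chromosome 2 (Zfp120 to Zfp345, 4 genes) and of chromosome 10 (Zfp781 and Zfp873) began 23.2, 50.4 and 268.9 kb from a zone, and Zfp972 on chromosome 2 lay at 87.35 kb. Far and near runs thus stood side by side on the same chromosome arm.

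Counted by bases in place of genes, no lower zone density than that of whole chromosomes was seen in the clusters, but the interval reached to either side of it. Their spans, 13.5 Mb in all, held 20 breakpoints, or 1.48 per Mb (exact Poisson 95% interval 0.905 to 2.29), against 1.19 per Mb (1.14 to 1.23) over chromosomes 1 to 19. Zones covered 15.35% of the spans and 12.99% of the chromosomes. The interval counts breakpoints as independent, though 5 of the 20 lay in the run from Zfp160 to Zfp40 and 3 in that from Zfp553 to Zfp646. In the former run, the overlapping pair of zones with a common right edge counted with a breakpoint each. Stretches equally rich in genes were not compared. A lower share of genes near zones thus stood beside a zone density whose interval held that of the whole. The near genes also shared zones, with the 55 clustered genes assigned to 22 nearest breakpoints and 50 of them at a breakpoint with at least 1 other. Up to 5 genes shared a breakpoint (Zfp420, Zfp27, Zfp383, Zfp74 and Zfp568). The 78 other near genes were spread over 69 breakpoints, 61 of them with a single gene. The rule fixes much of this contrast, since 54 of these 78 genes have no Zfp gene within 500 kb.

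Zones that held a Zfp end were of ordinary size. The 21 zones with an end of a clustered gene had a median width of 126 kb (quartiles 74 and 152 kb) and the 64 zones with an end of an other Zfp gene 114.5 kb (92 and 143 kb). The 2310 zones with a gene end but no Zfp end had a median of 116 kb (87 and 140 kb). These spreads overlap throughout, and no zone held ends of both kinds of Zfp gene. Median arms in zones with a clustered end were 75 kb on the left and 41 kb on the right, against 53 kb on either side in zones without a Zfp end.

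Among the other Zfp genes, several had an end at a breakpoint. Zfp462, a large gene (chromosome 4, 54944491 to 55083563) for a nuclear protein needed in embryonic development, had an end 0.0095 kb from the middle of the bin. Zfp113, Zfp408, Zfp971 and Zfp639 followed at 0.243, 0.256, 0.358 and 0.667 kb, values that the bin of 1 kb does not rank. Zfp605, Zfp638, Zfp518b, Zfp619, Zfp663, Zfp598 and Zfp148 had ends 1.47 to 6.60 kb from a breakpoint. These genes came from many chromosomes. Most had no Zfp neighbour within 500 kb, as was the case for 123 of all 195 other Zfp genes. Zfp113, Zfp971, Zfp663, Zfp605 and Zfp619 had 1 or 2.

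Small groups below the limit of 3 neighbours also shared zones. Zfp251, Zfp7 and Zfp647 on chromosome 15 lay in a single zone of 124 kb. Zfp637 and Zfp239, Zfp939 and Zfp619, Zfp663 and Zfp334, and Zfp971 and Zfp931 were pairs with an end each in a single zone. A breakpoint fell within the gene body of 8 other Zfp genes (4.10%) and of 3 clustered ones (1.56%, 0.533 to 4.49%), against 4.02% of all protein-coding genes. The 8 were Zfp462, Zfp113, Zfp605, Zfp663, Zfp971 and the long genes Zfp521, Zfp536 and Zfp804b. The farthest other genes were Zfp808, Zfp935 and Zfp934, a trio of chromosome 13 at 1491, 1425 and 1313 kb, then Zfp236 at 1323 kb and Zfp965 at 1167 kb.

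Of 30 well-studied members listed by name, 13 (43.3%) were near a zone, 3 of the 6 clustered and 10 of the 24 other ones, beside 34.4% of all Zfp genes and 38.5% of all protein-coding genes. That list was drawn up with earlier results of these data known. Zfp57, which protects imprinted methylation in early embryos, had an end 10.8 kb from a breakpoint, whereas Zfp445, which also protects imprints, lay 501.1 kb from any zone. Zfp281, a transcription factor of pluripotent cells, Zfp217, Zfp292, Zfp335 and Zfp91 had ends inside zones, 20.8 to 31.4 kb from breakpoints. Zfp932, a repressor of retroviral elements, lay 15.7 kb from the zone that held Zfp605. Beyond 20 kb were Zfp143, a promoter-binding activator, at 35.7 kb, Zfp207, which acts at the mitotic spindle, at 164.3 kb, and Zfp131 at 314.2 kb. The CCCH-type genes, whose proteins bind AU-rich mRNA, were divided, with Zfp36 inside a zone and Zfp36l1 and Zfp36l2 at 110.0 and 240.1 kb.

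A list of partners of KRAB zinc finger proteins was also drawn up with earlier results of these data known. It held 18 genes of the Trim28 pathway, the HUSH complex and DNA methylation. Of these, 11 (61.1%, 38.6 to 79.7%) were near a zone, against 38.5% of all protein-coding genes. Trim28 itself was the farthest of them, 1561 kb from a zone on chromosome 7, beyond the end of the run from Zfp551 to Zfp446. Setdb1, the H3K9 methyltransferase, lay 126.5 kb away. The heterochromatin protein genes Cbx3 and Cbx5 and the Setdb1 partner Atf7ip lay inside zones, at 11.8, 37.6 and 17.3 kb from a breakpoint, and Cbx1 was 24.0 kb from the edge of a zone. Of the HUSH complex, Pphln1 lay in a zone and Mphosph8 and Tasor did not, at 83.6 and 362.7 kb.

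The direction of transcription was read from the promoter windows. Among near genes with a known strand, the end where transcription starts was the one nearer to the breakpoint in 28 of 48 clustered genes (58.3%, 44.3 to 71.2%) and in 27 of 64 other Zfp genes (42.2%, 30.9 to 54.4%), against 58.2% of all near protein-coding genes. The share of clustered genes was thus close to that of all genes, though with a wide interval, and the interval of the other genes lay below it. These intervals count genes as independent. Near genes without a known strand were left out, so that 48 of 55 clustered and 64 of 78 other near genes counted. Start positions in place of gene ends gave near shares of 26.7% (172 clustered genes, 20.7 to 33.8%) and 40.1% (152 other genes, 32.7 to 48.1%). Of 16457 protein-coding genes with a window, 5580 had a start within 20 kb. The interval of the other genes held this share, and that of the clustered genes lay just below it. Counted by windows, 26.6% of clustered, 42.9% of other Zfp and 34.2% of all windows were near. Genes with several starts count repeatedly there, and the 88 near windows of other Zfp genes came from 61 genes.

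Clustered and other Zfp genes differed in median CpG content more than near and far starts did within either group. The 188 promoter windows of clustered genes held a median of 10 CpG per 300 bases (quartiles 7 and 17) and the 205 of other Zfp genes 17 (9 and 25), beside 14 (4 and 25) over all protein-coding genes. In clustered genes the median was 12 for starts within 20 kb of a zone and 10 for those beyond. In other Zfp genes it was 19 and 16, and over all genes 19 and 10. The spread within each set was wide, from 1 to 51 CpG in clustered genes, and all sets overlapped.

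**Figure D4:**
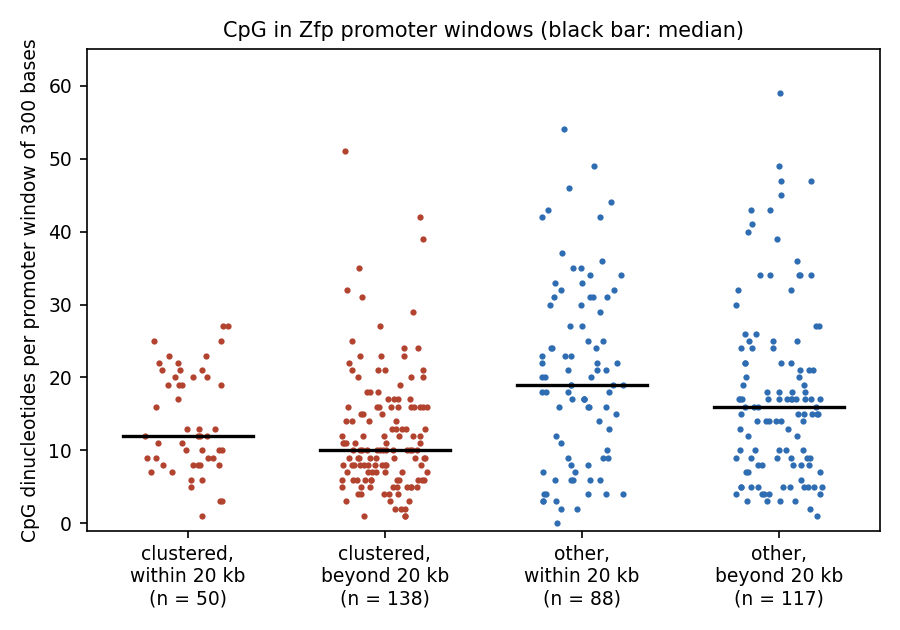
CpG dinucleotides per RefSeq promoter window of 300 bases (vertical) for clustered and other Zfp genes, split at a start within 20 kb of a zone; each point is a window and black bars are medians. The medians are 12 and 10 in clustered genes and 19 and 16 in the others, with overlapping points throughout.

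Near-identical copies limit what short reads can place. A stretch of 50 bases that recurs elsewhere in the RefSeq promoter table was found in 30 of 188 windows of clustered genes (15.96%), in 17 of 205 of other Zfp genes (8.29%) and in 7.498% of all windows. Among clustered genes, such windows were concentrated in a few runs. The run of chromosome 4 from Zfp980 to Zfp933 had 10 of 15, and 3 of its 15 genes were near. The run from Zfp160 to Zfp40 had 6 of 21, and 13 of its 21 genes were near. The run from Zfp551 to Zfp446, the farthest from zones, had 0 of 6. Among the other runs without a near gene, the run of Zfp120 had 3 of 4, those of Zfp781 and Zfp954 had 1 of 3 and 1 of 4, and those of Zfp786 and Zfp628 had 0 of 8 and 0 of 4. Runs with and without near genes thus both included some with such windows and some with none. Among the other Zfp genes, windows of this kind included those of a stretch of chromosome 2. They belonged to Zfp968, Zfp965, Zfp966, Zfp967, Zfp973, Zfp970, Zfp971 and Zfp931, each with only 1 or 2 Zfp neighbours within 500 kb. Zfp971 and Zfp931 had ends inside a zone, and the rest lay 115.9 to 1167 kb from one. No source used here states how reads with several matches were handled, and the part of repeated sequence in the shares was not tested.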

How the data were processed

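A single wild-type OK-seq library had a processed file, and the other 29 of 30 samples were not analysed here. Per the submitters' processing notes, the build was mm10 and the tools included BWA 0.7.13, Trim Galore 0.4.2 and Picard 2.8.2; no source used here gives their roles and settings or how breakpoints were called. Per the file headers, the authors deposited for each zone a breakpoint bin, a minimum to its left, a maximum to its right and their distances in bp. Arms stop at 100 kb, and there are no counts. The members and lists were chosen with earlier results of these data known.

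Genes came from RefSeq (GRCm38.p6); 107 protein-coding genes on scaffolds, none of them a Zfp gene, were left out. Distances ran from the nearer gene end to the nearest zone edge (0 inside) or to the middle of the breakpoint bin. Near meant within 20 kb. Intervals are Wilson, Newcombe or exact Poisson at 95%, with scipy 1.17.1, and no p-value was computed. Distances and cluster calls were tested on simulated data. Named were, in each group, up to 12 genes inside a zone nearest to a breakpoint and the 5 farthest from any zone, the first, last and nearest gene of each run, and 30 listed genes; further members were named after their values were seen. Finger motifs in proteins were not analysed here.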

Additional observations from a re-analysis of the deposited data

How the results depend on the processing

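The other Zfp genes had a higher share near zones than the clustered ones under each of the 41 alternatives tried, with differences from 5.37 to 18.9 points beside 11.35, but in 7 of the 40 with an interval that interval held 0: limits of 50 and 100 kb, wide zones, gene midpoints, a window of 1000 kb, and the cluster of chromosome 13, the largest, left out (counted under 2 alternatives). With each of the 22 clusters left out in turn, chosen after seeing the data, the clustered share ran from 24.6% (without the chromosome 17 run from Zfp160) to 30.4% and the difference from 9.64 to 15.4 points. The shares moved outside their intervals, for clustered and other genes, at 100 kb (47.4% and 53.85%), with wide zones (17.7% and 23.1%) and with a breakpoint within 50 kb of an end (20.8% and 31.8%). Gene midpoints moved the share of other genes to 32.3%, and leaving out the 2 clusters with most near genes, also chosen after seeing the data, moved that of clustered genes to 21.1%. Wide zones moved the medians to 270.2 and 332.5 kb and turned their order; the cause was not tested beyond fewer zones being used. Of 100 named genes, 18 near ones were lost with wide zones, 5 with midpoints and, of 83 with a known start, 2 with transcription starts; merging zones changed none. The alternative by finger motifs in proteins was not run. No paired analysis was possible because only 1 library had a file. Depth is unknown, so no zone could be weighted by it.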

Other observations

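Other zinc finger families fixed by symbol gave values beside those of the Zfp genes. Of 40 Zbtb genes, which pair fingers with a BTB domain and include few tandem copies, 20 (50.0%, Wilson 95% interval 35.2 to 64.8%) had an end within 20 kb of a zone, with a median distance of 17.2 kb. Of 27 Zscan and Zkscan genes, which carry a SCAN domain, 11 (40.7%, 24.5 to 59.3%) were near, with a median of 104.0 kb and a farthest gene at 3687 kb. These near genes were assigned to 19 and 8 breakpoints, and 38.5% of all protein-coding genes were near.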
